A study of Homo sapiens with 18 samples.

Results

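Some of the most heavily translated messages of a cell encode not the ribosome itself but the factors that work with it. A set of 10 genes, most of them for such factors, is described here in a FLAG-ADAR3 RNA immunoprecipitation study. The genes were listed by Ensembl ID from the 60666 IDs in the tables, by a rule that uses no values. That list was nevertheless drawn up with earlier results of these data known. The elongation factor genes are EEF1A1 (ENSG00000156508), EEF1B2 (ENSG00000114942), EEF1G (ENSG00000254772) and EEF2 (ENSG00000167658). EIF3E (ENSG00000104408) and EIF3L (ENSG00000100129) encode initiation factor subunits. The others are PABPC1 (ENSG00000070756), NACA (ENSG00000196531), TPT1 (ENSG00000133112) and HNRNPA1 (ENSG00000135486). The tables carry IDs alone, and the symbols came with the gene list.

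The cells were U373-MG, an established glioblastoma line, transduced with retrovirus and grown in medium with G418. They carried FLAG-tagged ADAR3 with a mutated R-domain (R-mutant), the FLAG-tagged wild-type protein (ADAR3 WT), or an empty vector with its antibiotic resistance (control). ADAR3 was thus expressed exogenously, and the labels do not say which residues were changed or whether the cells were pools or clones. Each genotype had an immunoprecipitated fraction (IP) and an input fraction, with 3 libraries in each of the 6 groups and 18 libraries in all. Cells were crosslinked with UV light before lysis, and ribosomal RNA was depleted, per the labels' protocols. No label says that replicates were separate cultures, so p-values measure the spread between libraries, and that spread may be technical.

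The files used give 1 fold change per gene and comparison, so values and depths of single libraries were not analysed here. A set of 3 tables compares the ratio of IP to input between genotypes, called IP enrichment below, and the remaining table concerns input RNA alone. Reading the IP tables as a ratio of ratios is an inference from the values, given with the processing steps. Normalization between libraries makes every value relative to the other RNAs of the same libraries. The largest input rise at a mean normalized count of 50 or more, ADAR3 WT over control, was 10.09 ± 0.34 (log2 ± standard error) for ENSG00000185736 in the authors' deposited table. Neither this ID nor any marker of glioblastoma cells could be checked by name, since no source used here pairs the IDs with symbols.

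As background, messages of this class are known as TOP mRNAs, for the 5′ terminal oligopyrimidine tract, an uninterrupted run of C and U that opens with a C at the very first base after the cap. The RNA-binding protein LARP1 holds the capped tract, and signalling through the kinase mTORC1 sets how many of these messages are translated. Most TOP mRNAs encode ribosomal proteins, and the genes here belong to the smaller non-ribosomal group or work beside it. ADAR3 is a relative of the adenosine deaminases that act on double-stranded RNA. No deaminase activity of its own has been detected, and its R-domain, rich in arginine, can contact single-stranded RNA.

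The tract can be read at the annotated gene starts. RefSeq (GRCh38.p14) gave 7 start sites for 6 of the 10 genes in the promoter table used here, and they are shown because the tract is what defines the class. Each line holds 15 bases before the start and 15 from it, on the strand of the gene. Capitals mark the unbroken run of pyrimidines that opens with C at the first transcribed base (T stands for U).
EEF1A1: gtcgccgtgaacgttCTTTTTCgcaacggg
EEF2: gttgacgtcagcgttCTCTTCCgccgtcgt
TPT1: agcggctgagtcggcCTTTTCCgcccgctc
NACA: acgctctcgctcggtCTTTCTgccgccatc
EEF1B2, downstream start: ccggtctcttcgggtCCTTTTTCCTCTCTT
EEF1B2, upstream start: gccggaagtggccccagcctcgaggccggg
EEF1G: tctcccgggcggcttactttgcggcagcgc
The windows lie at chr6:73521018-73521047 on the minus strand for EEF1A1, chr19:3985449-3985478 (minus) for EEF2, chr13:45341169-45341198 (minus) for TPT1 and chr12:56725285-56725314 (minus) for NACA. Those of EEF1B2 lie at chr2:206159880-206159909 (plus) and chr2:206159594-206159623 (plus), and that of EEF1G at chr11:62573877-62573906 (minus).

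A C followed by at least 4 pyrimidines, read on the gene's strand from the annotated first base, was present at 5 of these 7 starts and in 5 of the 6 genes. Among all 35116 starts in the table, 4.07% opened this way. The run measured 7 bases in EEF1A1, EEF2 and TPT1, 6 in NACA and 16 at the downstream EEF1B2 start, where it goes past the end of the window shown. At EEF1G and at the upstream EEF1B2 start the annotated first base was not a C, which says only that these letters do not stand at these positions.

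Further annotation of the genes differed. RefSeq places small nucleolar RNA genes within EEF2 (SNORD37), EEF1B2 (SNORD51 and SNORA41) and TPT1 (SNORA31 and SNORA31B), so these 3 are also snoRNA hosts. The genomic span was shortest for EEF1B2, at 3320 bases (chromosome 2, 206159609 to 206162928), and longest for EIF3E, at 47502 bases (chromosome 8, 108201216 to 108248717). Pseudogene symbols differed widely in number among these genes, and no other genes were counted. RefSeq lists 75 pseudogene symbols formed from HNRNPA1, 50 from EEF1A1, 14 from TPT1, 13 from PABPC1, 8 each from EEF1B2 and EEF1G, 7 from NACA, 4 from EIF3E, 3 from EIF3L and 0 from EEF2. How the authors counted reads shared with such copies is not stated, so values of the genes with many copies carry that uncertainty.

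The genes were not measured equally well. HNRNPA1, which encodes an abundant nuclear RNA-binding protein, is listed at a mean of 0 in all 3 IP tables, has no row in the input table used here, and gives no fold change anywhere. EEF1G, the gamma subunit of the eEF1 complex, had mean normalized counts of only 4.62 to 9.05 across the authors' deposited tables. In input, 98.9% of the tested IDs had a larger mean than EEF1G. Whether reads of either gene were assigned to other IDs or dropped was not tested, and no level in the cells is read from these rows. The remaining 8 genes all fell in the highest of 5 groups of tested IDs, equal in size and ordered by mean normalized count, called the abundant IDs below, in each of the 4 tables. The mean over input libraries in the authors' deposited table was 59005 normalized counts for EEF1A1, 74144 for EEF2, 4815 for EEF1B2, 17459 for TPT1 and 6222 for NACA. It was 15464 for PABPC1, 5765 for EIF3E and 4263 for EIF3L in the same authors' deposited table. These counts are not divided by transcript length, so they show how well each gene was sampled and do not order the genes by level. Standard errors of the 8 genes in the authors' deposited tables lay between 0.15 and 0.31 on the log2 scale.

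Against the empty vector, 6 of the genes were less enriched with either form of ADAR3, among them 3 of the 4 elongation factor genes and neither eIF3 subunit gene. In the R-mutant 6 of the 9 genes tested were lower, 0 were higher and 3 did not pass. In ADAR3 WT the counts were likewise 6 lower, 0 higher and 3 not passing. The lower genes were TPT1, EEF1B2, NACA, EEF1A1, PABPC1 and EEF2 in both. Each deposited log2 fold change was set over its standard error and tested two-sided against the normal distribution, with Benjamini-Hochberg adjustment at 0.05 over 21120 IDs for the R-mutant and 21121 for ADAR3 WT.

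Lower calls made up 7.95% of all tested IDs for the R-mutant and 8.14% for ADAR3 WT, and higher calls 5.38% and 5.99%. Among abundant IDs, 14.7% were lower in the R-mutant and 14.9% in ADAR3 WT. The median log2 fold change over the 9 genes was -0.94 in the R-mutant and -0.75 in ADAR3 WT. For all tested IDs these medians were 0.03 and 0.01, and for abundant IDs -0.04 and -0.05. With the test statistic rescaled to its spread across IDs, a stricter setting, 3 genes still passed in each comparison, namely TPT1, EEF1B2 and EEF1A1. Over all tested IDs and both directions, 335 of 21120 passed that setting in the R-mutant and 428 of 21121 in ADAR3 WT. Both comparisons use the same control libraries, so they are not independent of each other.

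**Figure D1:**
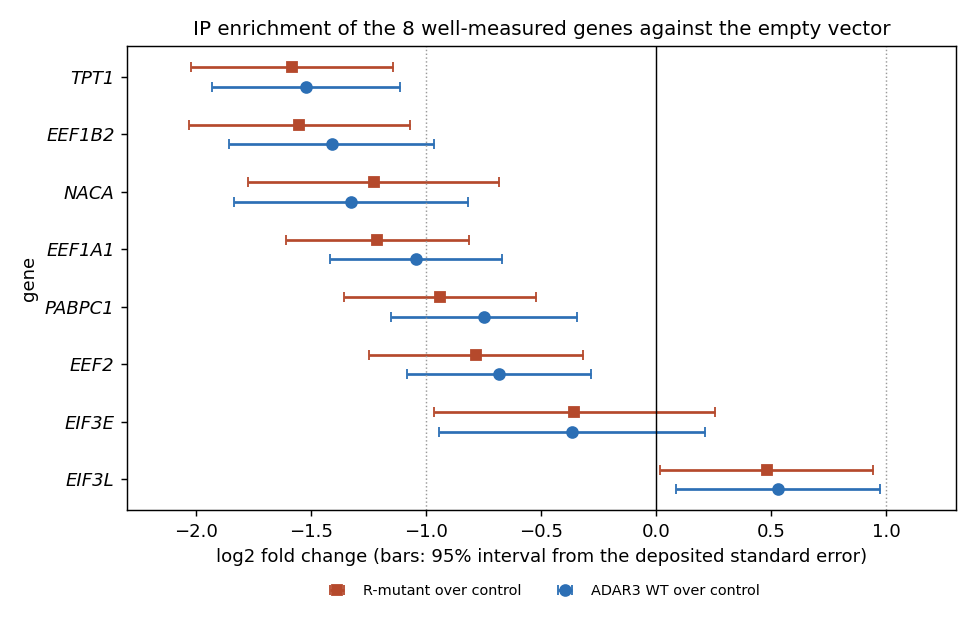
Log2 fold change of IP enrichment (horizontal axis) for the 8 genes with a mean normalized count of at least 50, with squares for R-mutant over control and circles for ADAR3 WT over control. Bars are 95% intervals from the deposited standard errors and dotted lines mark a 2-fold difference; TPT1 to EEF2 lie below 0 with their intervals in both comparisons, EIF3E spans 0 and EIF3L lies above it.

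The elongation factors come first by role. EEF1A1 encodes the factor that brings aminoacyl-tRNA to the ribosome. Over control, its log2 fold change in the authors' deposited tables was -1.21 ± 0.20 (standard error) in the R-mutant and -1.04 ± 0.19 in ADAR3 WT. The ratio of IP to input was thus 43.1% of the control's in the R-mutant (adjusted p 2.25e-07, normal test) and 48.5% of it in ADAR3 WT (adjusted p 2.40e-06, normal test). EEF1A1 stood in the lower tail, with 7.74% of tested IDs below it in the R-mutant and 9.34% in ADAR3 WT.

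EEF1B2 encodes the subunit that exchanges GDP for GTP on eEF1A. The authors' deposited tables give it -1.55 ± 0.24 in the R-mutant and -1.41 ± 0.23 in ADAR3 WT, each over control. These values correspond to 34.1% (adjusted p 2.68e-08, normal test) and 37.6% (adjusted p 5.44e-08, normal test) of the control ratio. Few abundant IDs were lower still, 2.77% of them in the R-mutant and 2.96% in ADAR3 WT.

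EEF2 encodes the factor that moves the ribosome along by a codon. Its values were -0.78 ± 0.24 in the R-mutant and -0.69 ± 0.20 in ADAR3 WT over control, per the authors' deposited tables. It kept 58.1% of the control ratio in the R-mutant (adjusted p 0.0116, normal test) and 62.2% in ADAR3 WT (adjusted p 0.00939, normal test). EEF2 was the least lowered of the called genes with both forms. Its log2 fold change was above that of EEF1B2 by 0.77 in the R-mutant, with a 95% interval of 0.10 to 1.44, and by 0.73 in ADAR3 WT, with an interval of 0.13 to 1.32. These intervals take the errors of both genes as independent, and the pair was picked with the values in view. EEF1G did not pass with either form. Its 95% interval in ADAR3 WT ran between -2.81 and 3.60, which leaves a large change in either direction possible.

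TPT1 and NACA encode neither elongation nor initiation factors. TPT1 encodes the translationally controlled tumour protein, named for the translational control of its message. It had the lowest fold change of the genes, -1.58 ± 0.22 in the R-mutant and -1.52 ± 0.21 in ADAR3 WT over control in the authors' deposited tables. The ratio was 33.4% of the control's in the R-mutant (adjusted p 3.03e-10, normal test) and 34.8% of it in ADAR3 WT (adjusted p 5.12e-11, normal test). Only 917 of 21120 tested IDs lay below TPT1 in the R-mutant, and 899 of 21121 in ADAR3 WT. TPT1 was alone in the set in that its whole 95% interval lay beyond a 2-fold reduction with both forms, at -2.02 to -1.14 in the R-mutant and -1.93 to -1.12 in ADAR3 WT. EEF1B2 came close to the same, with -2.03 to -1.07 in the R-mutant and -1.86 to -0.97 in ADAR3 WT.

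NACA encodes the alpha subunit of the nascent polypeptide-associated complex, which meets new chains as they leave the ribosome. It stood at -1.23 ± 0.28 in the R-mutant and at -1.33 ± 0.26 in ADAR3 WT over control, per the authors' deposited tables. The corresponding shares of the control ratio were 42.6% (adjusted p 3.00e-04, normal test) and 39.9% (adjusted p 1.34e-05, normal test). NACA was the only one of the 6 lower genes whose value was further from 0 in ADAR3 WT than in the R-mutant, a difference smaller than its standard error. Under the rescaled setting its adjusted p was 0.152 in the R-mutant and 0.0550 in ADAR3 WT.

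PABPC1 encodes the main cytoplasmic protein that coats poly(A) tails and links them to the initiation machinery. Over control, the authors' deposited tables list -0.94 ± 0.21 for it in the R-mutant and -0.75 ± 0.21 in ADAR3 WT. It had 52.1% of the control ratio in the R-mutant (adjusted p 2.93e-04, normal test) and 59.5% in ADAR3 WT (adjusted p 0.00388, normal test). Neither PABPC1 nor EEF2 reached a 2-fold difference with either form.

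The eIF3 subunit genes were not called lower by the normal test. The eIF3 complex holds the small ribosomal subunit ready for the messenger RNA, and EIF3E and EIF3L encode subunits e and l. EIF3E had -0.36 ± 0.31 in the R-mutant and -0.37 ± 0.29 in ADAR3 WT over control in the authors' deposited tables. Its adjusted p was 0.529 in the R-mutant and 0.479 in ADAR3 WT (normal test). The adjusted p of the authors' own test, described below, was 5.20e-11 in the R-mutant and 7.82e-12 in ADAR3 WT. EIF3E was also the least precisely measured of the 8 genes, and only 4.40% of abundant IDs had a larger standard error in the R-mutant comparison.

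EIF3L was the only well-measured gene of the set with a value above 0 against control. The authors' deposited tables list 0.48 ± 0.24 in the R-mutant and 0.53 ± 0.23 in ADAR3 WT. Neither value passed the test. The adjusted p was 0.181 in the R-mutant, where the unadjusted p was 0.0421 (normal test), and 0.107 in ADAR3 WT, where the unadjusted p was 0.0199 (normal test). Of all tested IDs, 24.8% had an unadjusted p under 0.05 in the R-mutant and 25.2% in ADAR3 WT, so such values were common. Set against EIF3E within a comparison, EIF3L was higher by 0.84 on the log2 scale in the R-mutant (95% interval 0.07 to 1.60) and by 0.89 in ADAR3 WT (0.17 to 1.62). The intervals again take the errors of both genes as independent.

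From lowest to highest, the order over control was TPT1, EEF1B2, NACA, EEF1A1, PABPC1, EEF2, EIF3E and EIF3L with both forms of ADAR3. EIF3E and EIF3L were the only neighbours in that order whose difference had a 95% interval without 0. For the other 6 neighbouring pairs the interval included 0 in the R-mutant and in ADAR3 WT. The order was set by these same values, and the intervals were not adjusted for the number of pairs. All 5 genes whose annotated start carries the pyrimidine run were among the 6 lower genes. Among abundant IDs, 14.7% were lower in the R-mutant and 14.9% in ADAR3 WT. The share among all genes with such a run was not computed, since no source used here pairs the IDs with symbols. EEF1G, the other gene with an annotated start here, was too sparse to serve as a contrast. PABPC1, EIF3E and EIF3L have no entry in the start table used here, so genes with and without a run could not be compared.

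**Figure D2:**
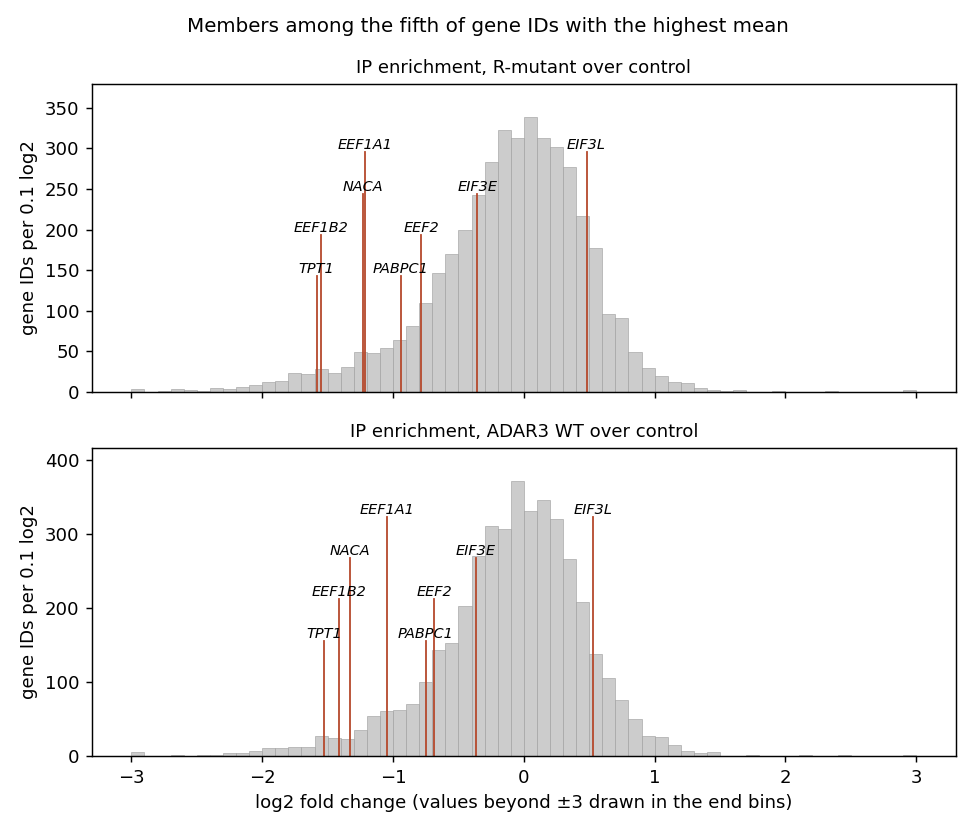
Number of gene IDs (vertical axis) in bins of 0.1 log2 fold change of IP enrichment (horizontal axis) among the abundant IDs, with R-mutant over control above and ADAR3 WT over control below. Red lines mark the 8 well-measured genes (line height has no meaning); TPT1, EEF1B2, NACA and EEF1A1 lie in the lower tail, with 2.18% to 6.22% of abundant IDs below them in ADAR3 WT.

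No change in input RNA was detected beside the lower enrichment. In input, ADAR3 WT over control, 0 of 9 genes passed the normal test adjusted over 20411 IDs, 0 had an unadjusted p under 0.05, and the authors' adjusted p also gave 0. Calls were 0.289% of all tested IDs there, so few genes of any kind passed. An unadjusted p under 0.05 was found for 2.92% of them, fewer than that threshold gives where nothing differs. The normal test was thus strict in input, and a missing call does not show that input levels were alike. The authors' deposited table lists input fold changes of 0.04 ± 0.18 for EEF1A1, 0.07 ± 0.19 for EEF2, 0.05 ± 0.23 for EEF1B2 and 0.04 ± 0.22 for TPT1. NACA, PABPC1, EIF3E and EIF3L stand there at 0.0035 ± 0.27, 0.011 ± 0.18, 0.11 ± 0.29 and 0.13 ± 0.18, per the authors' deposited table. The 95% interval of each of these 8 genes stayed within a 2-fold difference, and the widest reached 0.69, for EIF3E. All 9 values were above 0, as were most abundant IDs, of which 27.6% lay below 0. EEF1G, at 0.33 ± 0.98 in the authors' deposited table, gives no useful bound. Input of the R-mutant was not analysed here.

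Between the ADAR3 forms no difference passed the test. The comparison asks whether mutation of the R-domain alters which RNAs come down with ADAR3, relative to the other RNAs. Of 9 genes, 0 passed the normal test adjusted over 23385 IDs, R-mutant over ADAR3 WT, and 0 had an unadjusted p under 0.05. The authors' adjusted p gave 7, as described below. Over all tested IDs, 0.00428% were called and 0.624% had an unadjusted p under 0.05, so calls were rare for any gene. That share is smaller than a threshold of 0.05 gives where nothing differs, so the normal test was strict here. A missing call therefore does not show that the forms were alike. With the test statistic rescaled to its spread, 78 of 23385 IDs passed and 0 of the 9 genes. The median over the 9 genes was -0.07, against -0.02 over all tested IDs and -0.03 over abundant IDs.

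The intervals limit how large a difference could be. For R-mutant over ADAR3 WT, PABPC1 had the lowest value, -0.21 ± 0.18 per the authors' deposited table, followed by EEF1A1 at -0.18 ± 0.15 and EEF1B2 at -0.16 ± 0.17. The 95% intervals were -0.56 to 0.15 for PABPC1, -0.48 to 0.12 for EEF1A1 and -0.50 to 0.19 for EEF1B2. EEF2 and TPT1 had -0.11 ± 0.20 and -0.07 ± 0.16 in the authors' deposited table, while NACA, the only well-measured gene above 0, had 0.08 ± 0.22. The eIF3 subunits stood at -0.06 ± 0.18 for EIF3L and -0.0029 ± 0.23 for EIF3E in the authors' deposited table. A 2-fold difference either way lay outside the interval of all 8 genes, as it did for 99.3% of abundant IDs. Smaller differences remain possible, and EEF1G, with an interval of -1.92 to 3.12, has no such bound.

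**Figure D3:**
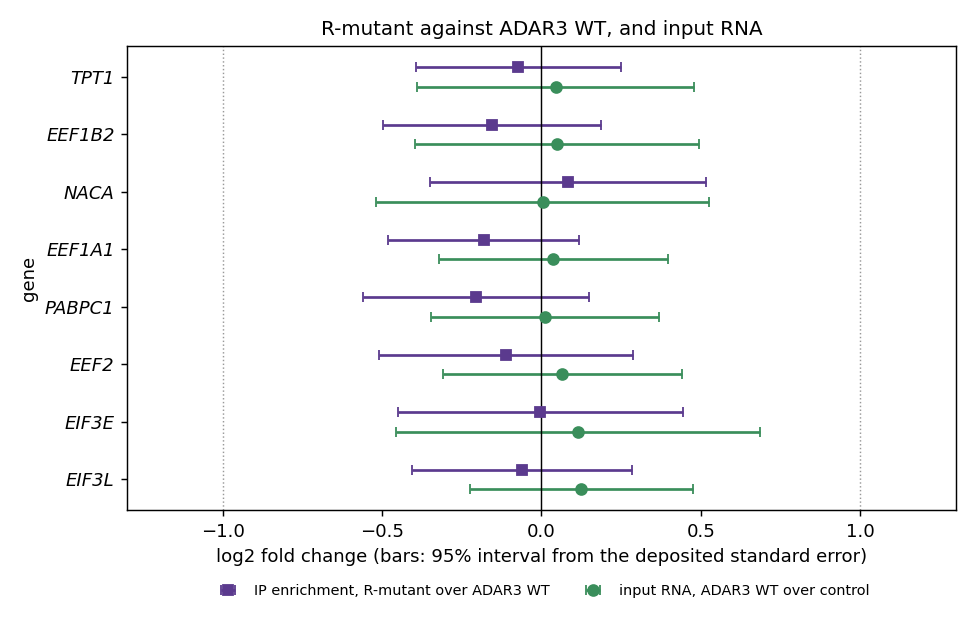
Log2 fold change (horizontal axis) of the 8 well-measured genes, with squares for IP enrichment in R-mutant over ADAR3 WT and circles for input RNA in ADAR3 WT over control. Bars are 95% intervals from the deposited standard errors and dotted lines mark a 2-fold difference; each of the 16 intervals includes 0 and stops short of the dotted lines.

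The 3 IP tables were tied to one another arithmetically. For each of the 8 genes, the deposited value of R-mutant over ADAR3 WT equalled the R-mutant's value over control minus that of ADAR3 WT, apart from an offset of -0.0134 to -0.0140. Over the 13431 IDs with means of 50 or more in these tables, the median offset was -0.0135. The direct comparison therefore adds its own standard error but no separate estimate of the difference.

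The authors' own test gave other results for the same genes. Its p-values in the IP tables are those of a chi-square variable on 7 degrees of freedom, so it covers more terms than the single contrast printed beside it. The statistic was below 0, which a chi-square variable cannot be, for 2132 IDs in R-mutant over ADAR3 WT. It was below 0 for 1932 IDs in R-mutant over control and 2802 in ADAR3 WT over control. Such IDs were left out when the distribution was matched. Of the 9 genes, 7 passed at an adjusted p of 0.05 in the authors' deposited table that sets the R-mutant over ADAR3 WT, 6 with fold changes below 0 and 1 above. Of all tested IDs 51.1% passed by that rule. The statistic of EEF1B2 in the authors' deposited table was 946, rank 11 of 23385 from the top, and its adjusted p was 1.38e-196. TPT1 (771, rank 33), EEF1A1 (564, rank 88) and NACA (439, rank 175) also stood near the top of the authors' deposited table, against a median of 40.2 for abundant IDs. The fold changes of R-mutant over ADAR3 WT lay within 1.19 standard errors of 0 in all 8 well-measured genes.

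EIF3L had the smallest statistic of the 8 in each IP table. The authors' deposited table of R-mutant over ADAR3 WT gives it 7.95, with an adjusted p of 0.479, and 70.3% of tested IDs had a larger one. For ADAR3 WT over control the authors' deposited table gives EEF1B2 330 and TPT1 279, against 21.8 for EIF3L. In the R-mutant over control, 8 of 9 genes passed the authors' adjusted p, 7 below 0 and 1 above, where 40.8% of all tested IDs passed. The one above 0 was EEF1G, at an adjusted p of 0.0409 in the authors' deposited table, on a mean normalized count of 8.19. In ADAR3 WT over control 8 of 9 passed as well, 7 below 0 and 1, EIF3L, above, where 43.0% of all tested IDs passed. Which terms stand behind these statistics is not stated in the sources.

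**Figure D4:**
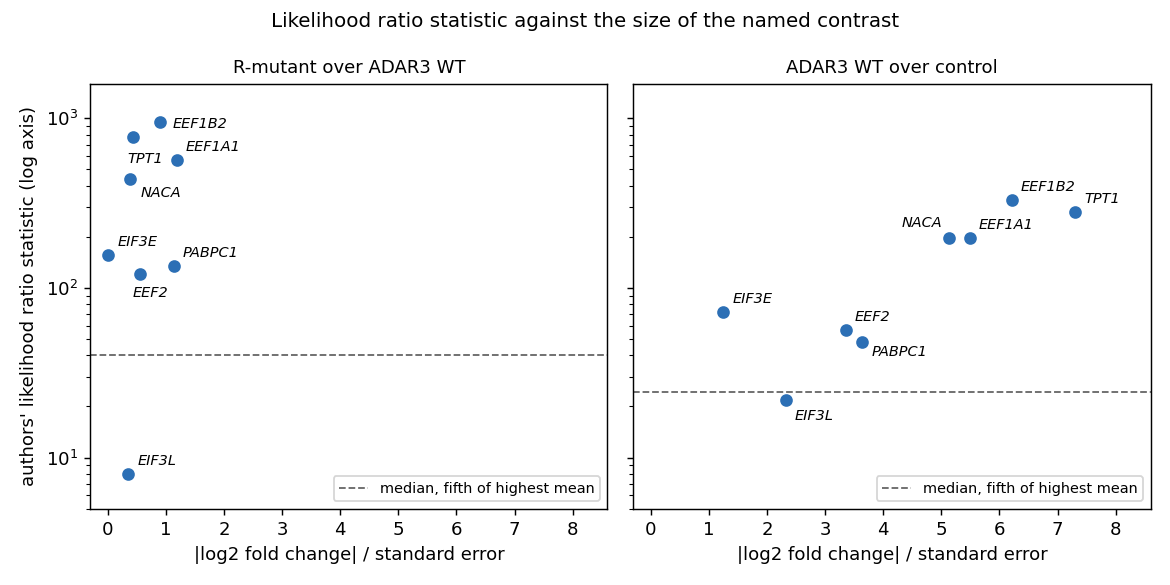
Authors' likelihood ratio statistic (vertical log axis) against the absolute log2 fold change over its standard error (horizontal axis) for the 8 well-measured genes, in R-mutant over ADAR3 WT on the left and ADAR3 WT over control on the right. The dashed line is the median statistic of the abundant IDs; in the left panel every gene but EIF3L lies above it although no contrast exceeds 1.19 standard errors.

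Other IDs had values close to the medians of the set. Among 13276 further IDs with means of 50 or more in all 4 tables, the one whose 4 log2 fold changes lay closest to the medians of the 8 genes was ENSG00000163636, at a Euclidean distance of 0.066. Over control it had -1.05 in the R-mutant and -0.95 in ADAR3 WT, with -0.12 between the forms and 0.03 in input, per the authors' deposited tables. The next was ENSG00000184436, at a distance of 0.067. The first 5 lay between 0.066 and 0.071, and this likeness rests on 4 values per ID, of which the IP values share libraries.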

How the data were processed

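Per the submitters' processing notes, the tools were STAR 2.7.7a, featureCounts and DESeq2 on GRCh38; the annotation, strand setting and model are not stated. The 4 tables are the authors' deposited comparisons. Per the file headers, each gives a mean signal (the mean of normalized counts), a log2 fold change, its standard error, a test statistic (a score with no fixed range) and p-values, raw and adjusted. A further 6 per-library columns in the input table match no label and were not used.

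Deposited log2 fold changes were divided by their standard errors and tested two-sided against the normal distribution (normal test), with Benjamini-Hochberg adjustment at 0.05 over IDs that have a deposited adjusted p. This replaced the authors' p, which in the IP tables is that of a chi-square variable on 7 degrees of freedom (relative tolerance 0.001). Intervals are at 95%. The script was tested on simulated folds with normal noise at the deposited standard errors. That checks the code and cannot show whether such noise describes these data. The IP fold was read as a ratio of IP to input between genotypes. Among tested IDs with an input mean under 10, its slope on the input fold was -0.79 for ADAR3 WT over control and 0.48 for R-mutant over ADAR3 WT, the signs that shared input in the denominator gives.

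The genes, lists and test were chosen with earlier results of these data known. All 10 genes are named, with the ID of the largest input rise and 2 of the 5 IDs nearest to the genes' medians. The rule also held companion lists and cell markers by symbol, not analysed here because the reference pairs 0 Ensembl IDs with symbols. Alternatives were the authors' adjusted p, a threshold of 0.01, a log2 fold of at least 1 in size, no filter on low means, a mean of at least 50, centring on the median, and rescaling. Depth per library is unknown. Software was Python 3.11.15 with numpy 2.4.6, pandas 2.3.3, scipy 1.17.1 and matplotlib 3.10.9.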

Additional observations from a re-analysis of the deposited data

How the results depend on the processing

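No paired analysis was possible because values per library that match the labels were not available to this work; leaving out replicates, the replicate block and other count models were not run for the same reason. Centring on ribosomal protein mRNAs was not run, since no source pairs the IDs with symbols. With the test statistic centred and rescaled to its spread, 3 genes passed in R-mutant over control and 3 in ADAR3 WT over control, against 6 in each as reported. The lost calls were EEF2, NACA and PABPC1 in both. Over all tested IDs and both directions, 335 of 21120 passed that setting in R-mutant over control and 428 of 21121 in ADAR3 WT over control. The authors' adjusted p, which covers more terms than the fold change, gave 7 genes in R-mutant over ADAR3 WT, where the report has 0. The other counts lay within 1.5 times those reported. Signs turned only for values near 0 that did not pass the normal test. EIF3E in R-mutant over ADAR3 WT became 0.019 when centred on the median and 0.017 when rescaled. Input values became -0.0066 for EEF1A1, -0.040 for NACA and -0.033 for PABPC1 when centred, and -0.037 for NACA and -0.013 for PABPC1 when rescaled. Called genes fell to 4 in each comparison over control at a log2 fold of at least 1, without EEF2 and PABPC1. They fell to 5 in R-mutant over control at a threshold of 0.01, without EEF2. Of 248 combinations of gene, comparison and alternative, 219 kept direction and call. Those of input RNA and of R-mutant over ADAR3 WT had no call to lose, so that share says little about the called genes. Depth per library is unknown, and EEF1G was too sparse for any bound.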
